A study of Mus musculus with 6 samples.

Results

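The genes described here were 10 genes of the growth arrest programme and of the p53 response, namely Cdkn1a, Mdm2, Ccng1, Ccnd1, Btg2, Gadd45a, Gadd45b, Gadd45g, Sesn1 and Plk3. They were chosen by name, and all 10 were present among the 20673 genes of the deposited tables. Adult C57BL/6J mice were given a regular diet (RD) or, for 3 days, a high-cholesterol diet (HCD) that contained cocoa butter, added cholesterol and sodium cholate. No mouse carried a transgene or a deletion, none had been made septic, and liver RNA from 3 mice per diet was sequenced as 1 library per mouse. The study asked what short HCD feeding does to the liver before sepsis, and the only comparison that the design holds is HCD against RD. Because RD and HCD differ in fat, cholesterol and cholate together, those components cannot be told apart.

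The transcription factor p53 is held at a low level by the ubiquitin ligase Mdm2 and its partner Mdm4, and it accumulates when DNA is damaged or the cell is stressed. It then switches on genes that stop the cell cycle, among them Cdkn1a (p21, an inhibitor of cyclin-dependent kinases), and also Mdm2 itself, which closes a feedback loop. Several of these genes answer to other signals as well. In liver, Cdkn1a is under clock and hormonal control, Gadd45b is induced by growth signals and by nuclear receptors, and Ccnd1 marks the entry of hepatocytes into the cell cycle.

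Levels are given as CPM, counts scaled by TMM to the library's depth, for 1 gene across livers, and as FPKM, which also divides by gene length, for comparisons between genes. Calls were made with edgeR's quasi-likelihood F test, with p adjusted over all 13105 genes tested and 0.05 as the threshold, and all 10 members passed the filter on low counts. Library depth ranged from 13771630 to 23129576 counts for RD livers and from 13935491 to 18545549 counts for HCD livers. Hepatocyte markers summed to 97031 to 131467 CPM with RD and 102619 to 144708 CPM with HCD, and none of the 10 was at 0. The liver HCD replicate 1 stood apart from the other 5. It had 254 CPM of Xist and no count of the Y-linked genes Ddx3y, Eif2s3y, Kdm5d and Uty, whereas Xist had no count in the other 5 livers and Ddx3y lay between 34.5 and 53.4 CPM. The sample labels give no sex, and the study used mice of both sexes. The diet differences of the members are therefore given with and without this liver.

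The promoters of Cdkn1a, Gadd45b and Gadd45g are printed first, with that of Mdm2 for comparison. They are the members with the largest log2 fold changes between diets in either direction. The windows are RefSeq sequences on GRCm38.p6 that run from 250 bases before a transcription start to 50 bases after it. The table held 11 windows for 9 of the 10 members, with 2 starts each for Cdkn1a and Sesn1, and none for Ccnd1. Capitals mark matches on either strand to the letters TATAAA of the TATA box, the letters CCAAT of the box of that name, the letters GGGCGG of the GC box, the letters CACGTG of the E-box, the letters TGACGTCA of the CRE and the letters TGANTCA of the AP-1 site, and matches by name to the p53 half-site and the NF-kB site, of which only GC boxes overlapped one another in the members. The windows lie at chr17:29090729-29091028 and chr17:29093519-29093818 (Cdkn1a, plus strand), chr10:117710709-117711008 (Mdm2, minus strand), chr10:80929841-80930140 (Gadd45b, plus strand) and chr13:51846425-51846724 (Gadd45g, plus strand).
Cdkn1a, upstream start: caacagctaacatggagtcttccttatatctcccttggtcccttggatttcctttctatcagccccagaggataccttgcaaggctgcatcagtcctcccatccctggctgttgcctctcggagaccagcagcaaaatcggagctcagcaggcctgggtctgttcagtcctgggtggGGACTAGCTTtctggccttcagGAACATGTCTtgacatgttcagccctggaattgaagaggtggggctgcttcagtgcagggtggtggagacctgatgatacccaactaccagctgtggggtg
Cdkn1a, downstream start: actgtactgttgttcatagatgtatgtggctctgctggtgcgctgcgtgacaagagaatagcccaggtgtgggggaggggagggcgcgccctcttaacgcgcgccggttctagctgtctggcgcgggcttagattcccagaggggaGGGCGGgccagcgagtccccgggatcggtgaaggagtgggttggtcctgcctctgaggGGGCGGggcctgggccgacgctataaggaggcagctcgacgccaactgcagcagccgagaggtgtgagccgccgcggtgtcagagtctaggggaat
Mdm2: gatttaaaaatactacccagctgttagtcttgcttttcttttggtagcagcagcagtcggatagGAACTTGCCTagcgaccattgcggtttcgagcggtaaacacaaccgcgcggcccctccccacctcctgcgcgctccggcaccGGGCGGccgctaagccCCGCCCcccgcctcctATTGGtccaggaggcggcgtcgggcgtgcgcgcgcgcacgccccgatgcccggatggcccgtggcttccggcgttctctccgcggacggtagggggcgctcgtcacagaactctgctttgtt
Gadd45b: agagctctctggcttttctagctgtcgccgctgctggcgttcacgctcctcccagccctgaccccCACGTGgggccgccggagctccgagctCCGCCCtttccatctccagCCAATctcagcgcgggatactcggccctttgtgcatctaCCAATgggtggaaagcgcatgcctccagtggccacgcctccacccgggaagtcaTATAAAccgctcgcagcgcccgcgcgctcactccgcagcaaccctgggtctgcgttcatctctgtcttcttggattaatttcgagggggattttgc
Gadd45g: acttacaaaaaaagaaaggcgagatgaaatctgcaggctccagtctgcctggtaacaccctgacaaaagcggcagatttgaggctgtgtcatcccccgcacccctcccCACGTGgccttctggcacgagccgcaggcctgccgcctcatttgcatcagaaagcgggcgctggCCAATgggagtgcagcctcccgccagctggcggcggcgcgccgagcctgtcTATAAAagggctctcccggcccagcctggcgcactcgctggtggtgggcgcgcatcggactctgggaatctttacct

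A p53 half-site was found in windows of 5 of the 9 members with a window (Cdkn1a, Mdm2, Ccng1, Gadd45a and Sesn1), and in 8.36% of all 32841 promoter windows. The upstream window of Cdkn1a held 2 half-sites, and the 10 bases that follow the second of them, tgacatgttc, matched the half-site pattern at 9 of 10 positions. Gadd45b and Gadd45g had no half-site match in these windows. Both had instead a TATA box, which 13.6% of all windows hold, and an E-box, which 7.15% hold, and no other member had either. The TATA box lay 46 to 41 bases before the start in Gadd45b and 27 to 22 bases before it in Gadd45g. GC boxes were matched in 7 members, CCAAT boxes in 7 and a CRE in Btg2 alone, against 35.7%, 37.4% and 1.79% of all windows. No member window matched the AP-1 site or the NF-kB site, which 7.81% and 8.46% of all windows hold. These matches describe letters in the sequence and say nothing of binding in these livers.

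None of the 10 members was called at an adjusted p under 0.05, beside 428 of the 13105 genes tested (3.27%), of which 255 were higher and 173 lower with HCD. At an unadjusted p of 0.05 or less stood 4 members, Cdkn1a and Gadd45b higher with HCD and Gadd45g and Plk3 lower, beside 20.9% of all genes tested. The median log2 fold change of the 10 members was -0.13, and that of all genes tested was 0.01. Only Gadd45g had RD and HCD livers that did not overlap in CPM, beside 27.6% of all genes tested. In whole liver, fewer cells of a type and less RNA per cell cannot be told apart. Without HCD replicate 1, Cdkn1a was called, 6 members reached an unadjusted p of 0.05, and 5 members (Cdkn1a, Ccnd1, Btg2, Gadd45a and Gadd45g) did not overlap between diets, beside 2.53%, 20.0% and 38.6% of the 13230 genes then tested.

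**Figure D1:**
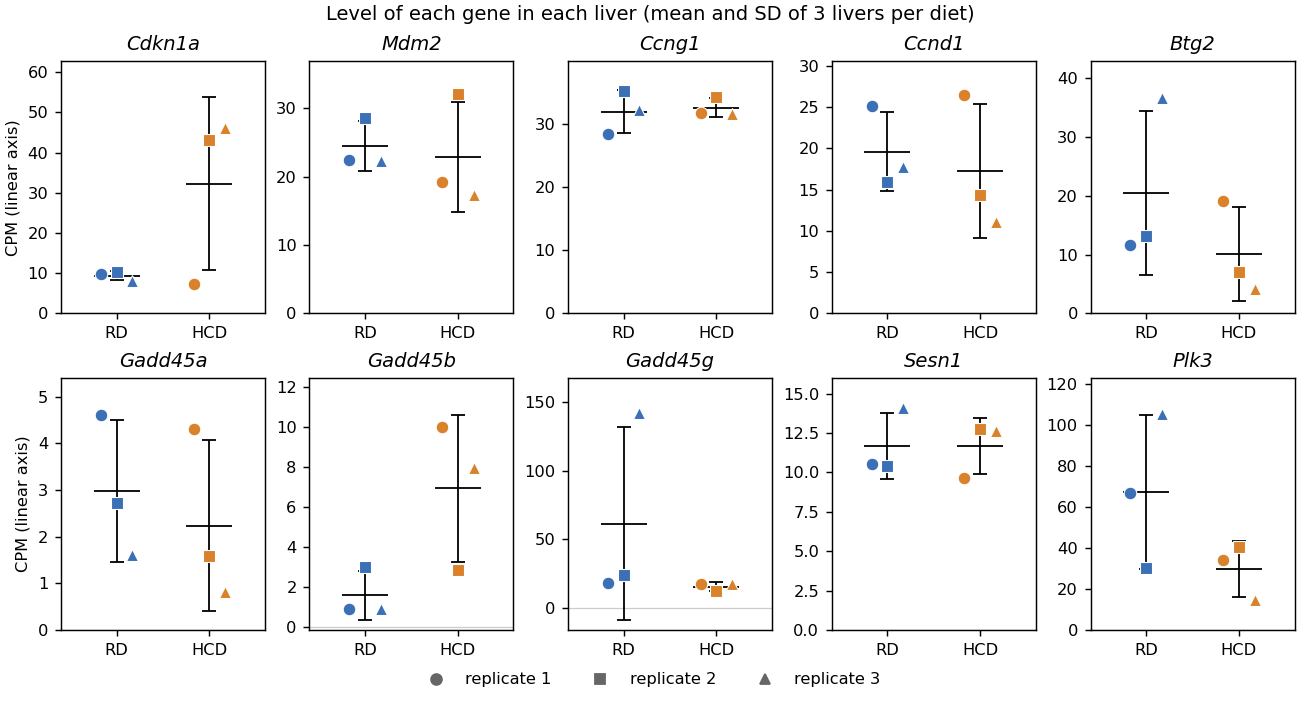
Level of each of the 10 genes in each liver in CPM, with 1 point per liver, a marker shape per replicate, and a bar for the mean and SD of the 3 livers of a diet; each panel has its own linear axis. In Cdkn1a, HCD replicates 2 and 3 stand at 43.2 and 46.0 CPM while HCD replicate 1 lies at 7.43 CPM, below all RD livers, and in Gadd45g RD replicate 3 stands alone at 142 CPM.

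Ordered by FPKM, Gadd45g and Plk3 were the highest members with both diets. With RD, Gadd45g averaged 77.5 ± 89.9 FPKM, Plk3 39.2 ± 22.5, Ccng1 13.3 ± 1.34, Btg2 10.98 ± 7.73, Mdm2 7.0 ± 0.929 and Ccnd1 6.08 ± 1.49 (SD, n = 3). Sesn1 followed at 4.29 ± 0.859 FPKM, Cdkn1a at 3.87 ± 0.405, Gadd45a at 2.46 ± 1.24 and Gadd45b at 1.44 ± 1.10 (SD, n = 3). Plk3 and Ccng1 were the only neighbours in this order whose RD ranges did not overlap. With HCD, every pair of neighbours overlapped, and the order differed mainly in Cdkn1a, which stood in place 4 at 13.4 ± 8.91 FPKM, and in Gadd45b, which stood in place 6 at 6.52 ± 3.56 FPKM (SD, n = 3).

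Cdkn1a (ENSMUSG00000023067, chr17:29090976-29100727, plus strand, GRCm38) was measured at 9.76, 10.4 and 8.12 CPM in the RD livers and at 7.43, 43.2 and 46.0 CPM in the HCD livers. The 3 RD livers were close together, with a mean of 9.42 ± 1.17 CPM (SD, n = 3). The HCD livers fell apart, 2 of them about as high as each other and HCD replicate 1 below every RD liver. The log2 fold change over all 6 livers was 1.77 (SE 0.56, 95% confidence interval 0.50 to 3.04, adjusted p = 0.126). Without HCD replicate 1 it was 2.24 (SE 0.17, 95% interval 1.86 to 2.63, adjusted p = 0.0030), which is a called rise over the 5 livers that have Y-linked counts. The gene was also called with all 6 livers when no filter on low counts was applied (adjusted p = 0.039, where 3.14% of 20673 genes were called), and not with DESeq2 (adjusted p = 0.118). An antisense gene that overlaps an exon of Cdkn1a had 0 to 2 counts per liver. How reads on bases common to both genes were counted was not stated.

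The clock genes Nr1d1 and Per1 also divided the HCD livers, and were singled out for it after their values were seen. Nr1d1 encodes REV-ERBalpha, a clock repressor that is known to repress Cdkn1a in liver. It stood at 53.6, 61.6 and 33.7 CPM with RD and at 32.8, 8.13 and 9.81 CPM with HCD, so that the livers with high Cdkn1a were those with the lowest Nr1d1. Per1, another clock gene that glucocorticoids also induce, was at 5.29, 4.05 and 9.51 CPM with RD and at 11.4, 23.6 and 25.6 CPM with HCD. Neither was called, with adjusted p of 0.132 for Nr1d1 and 0.057 for Per1. Some other clock genes, also picked after their values were seen, did not divide the HCD livers in this way. In HCD replicates 1, 2 and 3, Cry1 was at 33.7, 31.8 and 32.1 CPM, Arntl at 27.1, 24.1 and 25.2 CPM and Dbp at 0.40, 1.59 and 0.41 CPM. The sources used here do not give the hour of tissue collection. The 7 red cell markers summed to 138 to 239 CPM with RD and to 177, 468 and 452 CPM in HCD replicates 1, 2 and 3, and they did not move together. The haemoglobin gene Hba-a1 was at 27.3, 15.3 and 36.7 CPM with RD and at 77.1, 176 and 170 CPM with HCD, above every RD liver in all 3. Alas2, an enzyme of haem synthesis in red cell precursors that was picked after its values were seen, was at 105, 105 and 154 CPM with RD and at 8.24, 97.0 and 119 CPM with HCD, lowest in HCD replicate 1 (log2 fold change -0.70, adjusted p = 0.612). The part of clock phase, of blood and of sex in the Cdkn1a values was not tested.

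The 3 genes most like Cdkn1a over the 6 livers were Bud31, a splicing factor, with r = 0.998, Dcakd with r = 0.992 and Gltpd2 with r = 0.989 (Pearson r of log2 CPM, 9116 genes compared, 154 of them above 0.9). Bud31 stood at 28.2, 28.4 and 26.6 CPM with RD and at 26.7, 36.9 and 38.3 CPM with HCD. In all 3 genes HCD replicates 2 and 3 lay above every RD liver, while HCD replicate 1 lay within the RD range for Bud31 and Dcakd and below it for Gltpd2 (85.8 CPM against 89.6 to 95.2 CPM). They had fold changes much smaller than that of Cdkn1a, such as a log2 fold change of 0.29 for Bud31 (adjusted p = 0.354). The likeness is a description, since the 6 livers and their libraries are common to every gene.

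**Figure D2:**
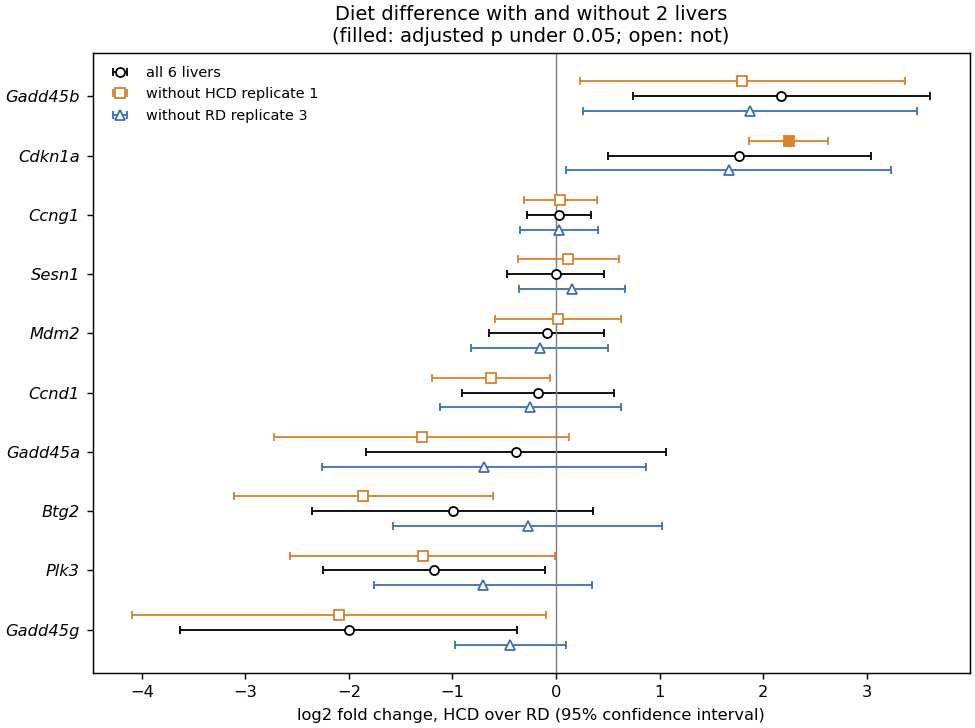
Log2 fold change of each member, HCD over RD, with its 95% confidence interval from edgeR, for all 6 livers (circles), without HCD replicate 1 (squares) and without RD replicate 3 (triangles). The single filled marker, adjusted p under 0.05, is Cdkn1a without HCD replicate 1 at 2.24, and the Gadd45g value moves from -2.0 to -0.44 without RD replicate 3.

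The p53 feedback loop itself showed no called change in Mdm2 and a called fall in Mdm4. Trp53, which encodes p53, was at 21.2, 25.6 and 18.5 CPM with RD and 17.7, 18.5 and 26.3 CPM with HCD, and its log2 fold change was -0.06 (SE 0.20, adjusted p = 0.888). Mdm2 (ENSMUSG00000020184, chr10:117688875-117710758, minus strand) stood at 22.4, 28.6 and 22.2 CPM with RD and at 19.3, 32.1 and 17.3 CPM with HCD. HCD replicates 1 and 3 lay below all RD livers and HCD replicate 2 lay above them. The log2 fold change of Mdm2 was -0.09 (95% interval -0.65 to 0.46, adjusted p = 0.862). Mdm4 binds p53 and blocks its activity. It stood at 36.1, 33.6 and 33.3 CPM with RD and at 24.0, 16.1 and 18.2 CPM with HCD, every HCD liver being below every RD liver, and its log2 fold change was -0.82 (SE 0.17, adjusted p = 0.045). The Mdm4 call was lost in 10 of the 15 alternatives, in which its adjusted p ranged from 0.0029 to 0.169 and its direction stayed. Mdm4 kept its call without HCD replicate 1 (adjusted p = 0.021). Of 17 regulators of p53 on the list, 13 could be tested, and Mdm4 was the only one called, 7.69% beside 3.27% of all genes tested. It was also the only one at an unadjusted p of 0.05, beside 20.9% of all genes tested.

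Ccng1 (ENSMUSG00000020326, chr11:40748552-40755311, minus strand) encodes cyclin G1, a p53 target that acts back on Mdm2. It was the steadiest member, at 28.5, 35.2 and 32.3 CPM with RD and 31.8, 34.3 and 31.5 CPM with HCD. Its log2 fold change was 0.03 with a 95% interval of -0.28 to 0.34, which bounds a diet difference at 1.26-fold upward. Sesn1 (ENSMUSG00000038332, chr10:41809935-41908424, plus strand), a stress-induced regulator of nutrient signalling, was nearly as steady at 10.5, 10.4 and 14.1 CPM with RD and 9.65, 12.8 and 12.6 CPM with HCD. Its log2 fold change had a 95% interval of -0.47 to 0.47. The 95% intervals of the fold ran from 0.638 to 1.38 for Mdm2, from 0.821 to 1.26 for Ccng1 and from 0.721 to 1.38 for Sesn1. With HCD replicate 1 left out, the log2 fold changes were 0.02 for Mdm2, 0.04 for Ccng1 and 0.12 for Sesn1, none of them called.

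Ccnd1 (ENSMUSG00000070348, chr7:144929931-144939925, minus strand) encodes cyclin D1, which drives cells out of G1. It stood at 25.1, 16.0 and 17.8 CPM with RD and at 26.4, 14.3 and 11.02 CPM with HCD, overlapping between diets (log2 fold change -0.18, 95% interval -0.91 to 0.56, adjusted p = 0.792). Without HCD replicate 1, the other HCD livers both lay below the RD livers and the log2 fold change was -0.63 (adjusted p = 0.206). The gene overlaps Oraov1 on the opposite strand by 818 transcribed bases, and Oraov1 had 142 to 251 counts per liver. Whether the counting used strand was not stated, so part of the Ccnd1 reads cannot be told apart from its neighbour.

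Btg2 (ENSMUSG00000020423, chr1:134075170-134079120, minus strand) is an antiproliferative gene that p53 and growth factors both induce. It stood at 11.7, 13.1 and 36.5 CPM with RD and at 19.2, 7.10 and 4.13 CPM with HCD, a wide spread in both diets that overlapped (log2 fold change -1.0, SE 0.60, 95% interval -2.35 to 0.36, adjusted p = 0.377). The Btg2 value was -1.86 without HCD replicate 1 (adjusted p = 0.115) and -0.28 without RD replicate 3 (adjusted p = 0.826). Its paralogue Btg1 was at 28.8, 39.1 and 68.0 CPM with RD and at 228, 117 and 185 CPM with HCD, and it rose with a log2 fold change of 1.96 (SE 0.35, adjusted p = 0.028). Every HCD liver was above every RD liver, HCD replicate 1 being the highest. The call was kept in 11 of 15 alternatives, including those without HCD replicate 1 (1.73, adjusted p = 0.047) and without RD replicate 3 (2.38, adjusted p = 0.026). The difference between the Btg1 and Btg2 responses was not tested.

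**Figure D3:**
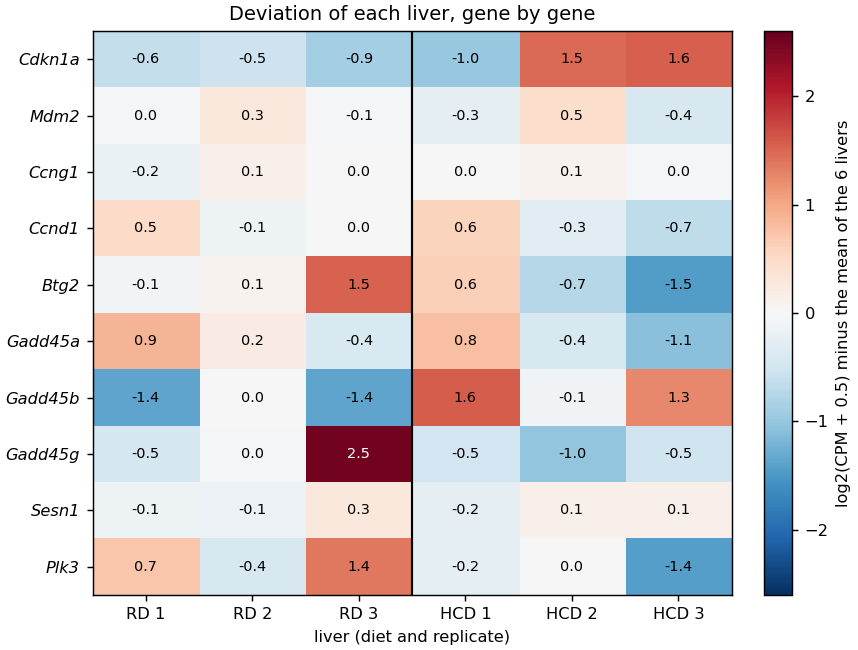
Deviation of each liver from the mean of the 6 livers, in log2 of CPM plus 0.5, for each member (rows) and liver (columns, RD left and HCD right of the line). RD replicate 3 is high in Gadd45g, Btg2 and Plk3, HCD replicates 2 and 3 are high in Cdkn1a, and HCD replicates 1 and 3 are high in Gadd45b.

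The Gadd45 genes encode small stress sensors that bind cyclin-dependent kinases, PCNA and MAP3K4, and edgeR called none of the 3. Gadd45b (ENSMUSG00000015312, chr10:80930073-80932204, plus strand) was at 0.87, 3.00 and 0.87 CPM with RD and at 10.01, 2.83 and 7.94 CPM with HCD. HCD replicates 1 and 3 lay above all RD livers, and HCD replicate 2 lay just under RD replicate 2. The log2 fold change of Gadd45b was 2.18 (SE 0.63, 95% interval 0.74 to 3.61, adjusted p = 0.101), from 18 to 198 counts per liver. DESeq2 called it (adjusted p = 0.0045, where 8.53% of genes were called), as did edgeR with no filter on low counts (adjusted p = 0.037). Without HCD replicate 1 the log2 fold change of Gadd45b was 1.80 (adjusted p = 0.195), and without RD replicate 2 it was 2.98 (adjusted p = 0.118).

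Cyp2b10, a target of the nuclear receptor CAR, which is also known to induce Gadd45b, was looked at after the Gadd45b values were seen. It stood at 2.11, 1.33 and 1.52 CPM with RD and at 44.7, 3.72 and 12.0 CPM with HCD, and was not called (adjusted p = 0.052). The order of the HCD livers was the same as for Gadd45b. That of the RD livers was not, since RD replicate 2 was highest in Gadd45b and lowest in Cyp2b10. HCD replicate 1, highest in both genes, was the liver with Xist counts. Kupffer cell markers were higher in part of the HCD livers, the 12 summing to 173 to 283 CPM with RD and to 519, 462 and 241 CPM in HCD replicates 1, 2 and 3, none being at 0 in all livers. All 12 had log2 fold changes above 0, as had 6643 of the 13105 genes tested. Of the 12, 6 reached an unadjusted p of 0.05 (20.9% over all genes), DESeq2 called 4 (8.53% over all genes), and edgeR called Cd68 alone, with a log2 fold change of 1.24 (adjusted p = 0.028) and of 1.24 without HCD replicate 1 (adjusted p = 0.051). The part of CAR, of Kupffer cells or of sex in the Gadd45b values was not tested.

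Gadd45g (ENSMUSG00000021453, chr13:51846678-51848468, plus strand) was at 17.8, 23.9 and 142 CPM with RD and at 17.2, 11.9 and 17.02 CPM with HCD. All HCD livers lay below all RD livers, by a narrow margin between RD replicate 1 and HCD replicate 1 that closed in FPKM (22.05 against 22.09). The exact two-sided permutation test gave p = 0.10 for Gadd45g, the smallest that 3 livers against 3 allow. Its log2 fold change was -2.0 (SE 0.71, adjusted p = 0.163), and RD replicate 3 decided its size. Without RD replicate 3 it was -0.44 (95% interval -0.98 to 0.10, adjusted p = 0.35), and without HCD replicate 1 it was -2.09 (adjusted p = 0.228). Gadd45a (ENSMUSG00000036390, chr6:67035096-67037457, minus strand) was at 4.61, 2.72 and 1.61 CPM with RD and at 4.30, 1.59 and 0.81 CPM with HCD, with overlap and a log2 fold change of -0.39 (SE 0.64, 95% interval -1.84 to 1.06, adjusted p = 0.768). With HCD replicate 1 left out, the Gadd45a value was -1.30 (adjusted p = 0.289). It overlaps the antisense transcript E230016M11Rik by up to 317 bases, which had 10 to 31 counts per liver beside 10 to 96 for Gadd45a.

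As a share of the summed FPKM of the 3 genes, Gadd45b made up 2.97%, 7.92% and 0.445% with RD and 26.9%, 13.9% and 25.03% with HCD. Every HCD liver was above every RD liver, and Gadd45g was the main gene in all 6 livers at 62.7% to 98.8%. This share was formed after the values were seen and is given without a test. It combines a Gadd45b level that was high in 2 HCD livers with a Gadd45g level that was high in 1 RD liver.

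**Figure D4:**
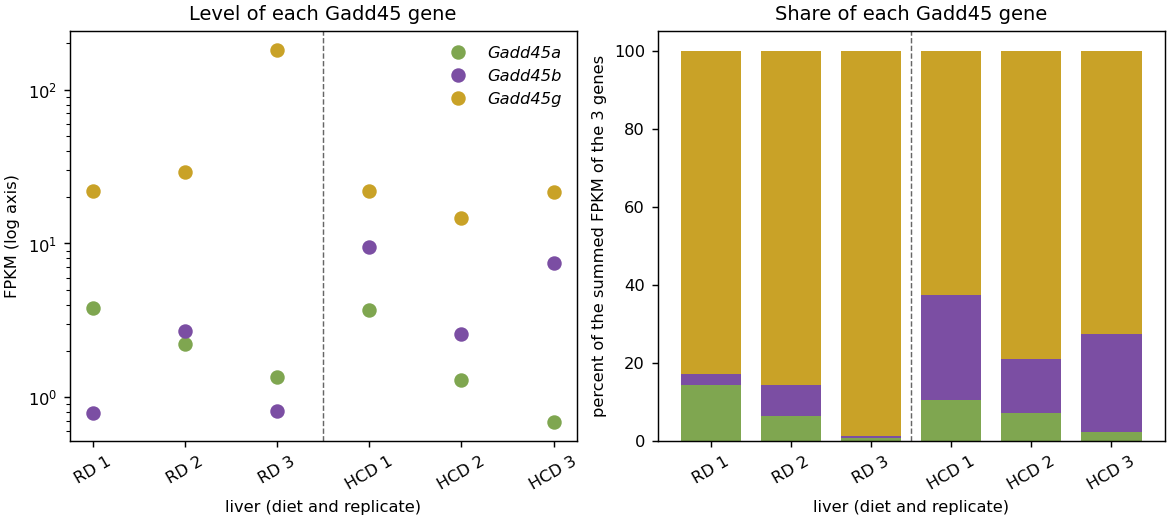
Left, FPKM of Gadd45a, Gadd45b and Gadd45g in each liver on a log axis. Right, the percent that each gene contributes to the summed FPKM of the 3 in that liver, where Gadd45b takes 0.445% to 7.92% with RD and 13.9% to 26.9% with HCD.

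Plk3 (ENSMUSG00000028680, chr4:117128655-117133963, minus strand) encodes a stress-responsive polo-like kinase that can phosphorylate p53. It stood at 66.6, 30.3 and 105 CPM with RD and at 34.2, 40.6 and 14.6 CPM with HCD. RD replicate 2 lay within the HCD range, and the log2 fold change was -1.18 (SE 0.47, 95% interval -2.25 to -0.10, adjusted p = 0.201). Without RD replicate 3 it was -0.70 (adjusted p = 0.444), and without HCD replicate 1 it was -1.29 (adjusted p = 0.246). Plk3 shares exonic bases with Tctex1d4 on the opposite strand, a gene that was not used here. RD replicate 3 was thus the highest liver for Btg2, Gadd45g and Plk3 together. It was also the highest for Myc, a growth-promoting immediate early gene, at 44.0 CPM against 18.6 and 3.42 CPM in the other RD livers and 3.24, 3.72 and 4.62 CPM with HCD, and for Tat, a liver enzyme induced by glucocorticoids and fasting, at 3222 CPM against 650 to 1637 CPM elsewhere. Other genes of these lists were not highest there. Egr1 was at 23.4 CPM in RD replicate 3 against 31.0 CPM in RD replicate 1 and 32.8 CPM in HCD replicate 1, Atf3 was lowest in RD replicate 3 at 0.74 CPM, and the glucocorticoid target Fkbp5 was at 19.8 CPM against 31.3 CPM in HCD replicate 1. These 5 genes were picked after their values were seen, neither Myc nor Tat was called, and their part in the member values was not tested.

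Across a wider list of 40 p53 target genes, 32 passed the filter on low counts, 3 were called higher with HCD and none was called lower. Over all genes tested, 1.95% were called higher. The median log2 fold change of the 32 was 0.10, against 0.01 over all genes tested, and 18 were above and 14 below 0. An unadjusted p of 0.05 was reached by 6 that were higher and 2 that were lower, 25% of the 32 beside 20.9% of all genes tested. DESeq2 called 4, all higher, beside 8.53% of all genes tested. Of the 32, 7 did not overlap between diets, beside 27.6% of all genes tested.

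Gdf15, a stress hormone secreted by hepatocytes that also answers to the integrated stress response, was at 3.08, 9.28 and 3.08 CPM with RD and at 19.4, 18.5 and 47.1 CPM with HCD. It rose with a log2 fold change of 2.48 (SE 0.53, adjusted p = 0.045), and every HCD liver was above every RD liver. Perp, which encodes a desmosomal membrane protein linked to cell death, was at 86.7, 85.5 and 68.5 CPM with RD and at 127, 133 and 127 CPM with HCD. Its rise of 0.69 on the log2 scale (SE 0.13, adjusted p = 0.036) was small beside that of Gdf15 and tight between livers. Rps27l, which encodes a ribosomal protein paralogue, was at 107, 97.0 and 103 CPM with RD and at 163, 166 and 156 CPM with HCD (log2 fold change 0.66, SE 0.12, adjusted p = 0.029). Without HCD replicate 1 the log2 fold changes were 2.70, 0.70 and 0.65 for Gdf15, Perp and Rps27l, with Gdf15 and Rps27l still called. The size of the Gdf15 value varied with single livers, being 3.19 without RD replicate 2 (adjusted p = 0.0503) and 1.90 without HCD replicate 3 (adjusted p = 0.115). Leaving out any one of the other 5 livers left 0 of these targets called, as did offsets that remove a trend with gene length, and the directions of all 3 stayed. On leaving out a liver the log2 fold change ran from 0.58 to 0.75 for Perp and from 0.62 to 0.69 for Rps27l, and with the length offsets it was 0.58 for Perp (adjusted p = 0.080) and 0.41 for Rps27l (adjusted p = 0.143).

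Bax, which promotes cell death, was at 14.9, 18.0 and 14.9 CPM with RD and 17.4, 22.96 and 17.3 CPM with HCD (log2 fold change 0.27, adjusted p = 0.413). Phlda3, Zmat3 and Ddb2, which often follow p53 activity across tissues, had log2 fold changes of 0.50, -0.38 and -0.29 with adjusted p of 0.557, 0.434 and 0.738. Bax, Phlda3, Zmat3 and Ddb2 were singled out after their values were seen. The sestrin paralogue Sesn2, which the integrated stress response also induces, was at 4.23, 7.88 and 7.08 CPM with RD and 14.5, 13.0 and 13.1 CPM with HCD (log2 fold change 1.09, SE 0.25, adjusted p = 0.056), and its diets did not overlap. Sesn2 was called by DESeq2 (adjusted p = 0.0046) and by edgeR with no filter on low counts (adjusted p = 0.031), and without HCD replicate 1 its log2 fold change was 1.04 (adjusted p = 0.106).

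**Figure D5:**
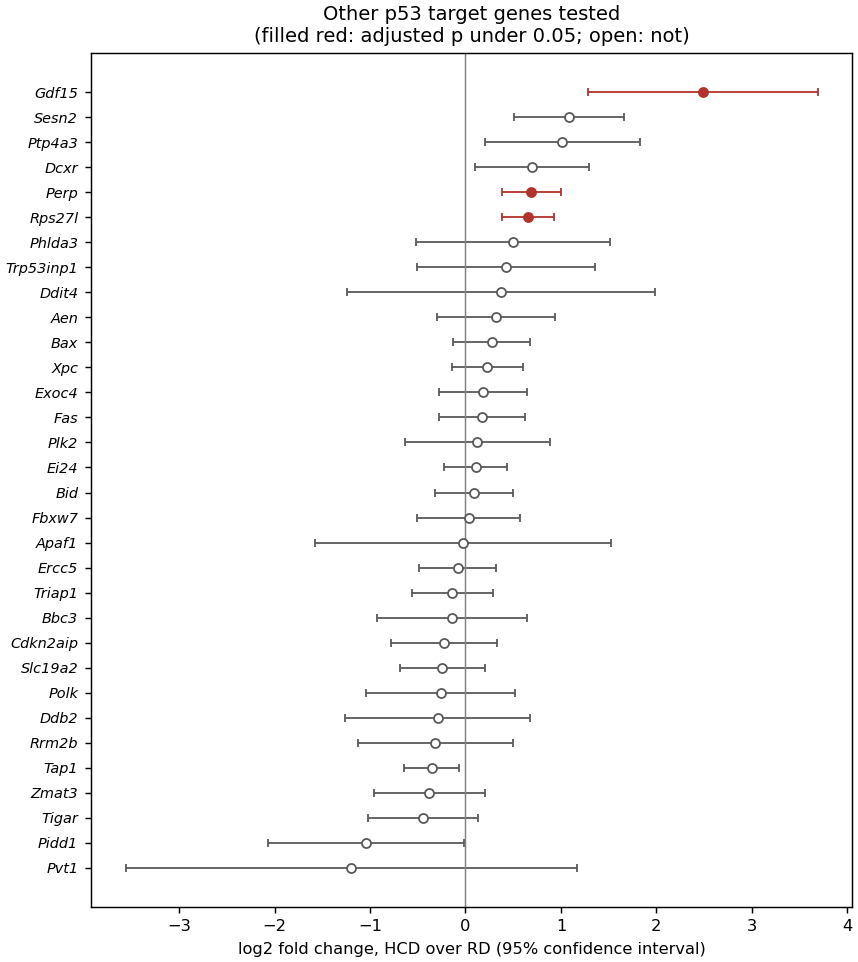
Log2 fold change, HCD over RD, with its 95% confidence interval for the 32 other p53 target genes that could be tested. The 3 filled points, adjusted p under 0.05, are Gdf15 at 2.48, Perp at 0.69 and Rps27l at 0.66, and the other genes lie on both sides of 0.

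Of 17 family paralogues of the members, 15 were tested, and Btg1 (higher) and Mdm4 (lower) were the 2 called by edgeR. That is 13.3% of the 15, beside 3.27% of all genes tested. The remaining 13 had adjusted p from 0.056 (Sesn2) to 0.947. Ccng2 averaged 13.2 ± 8.22 CPM with RD and 22.3 ± 3.23 CPM with HCD (SD, n = 3), with a log2 fold change of 0.74 (adjusted p = 0.309) that was 1.36 without RD replicate 3 (adjusted p = 0.056). The other inhibitors of cyclin-dependent kinases in the Cdkn1a family gave 0.09 for Cdkn1b and 0.77 for Cdkn1c, with adjusted p of 0.789 and 0.418. Sesn3 (-0.35), Btg3 (-0.51), Tob1 (0.05), Tob2 (0.49), Plk2 (0.13), Plk4 (-0.37), Plk5 (0.95), Ccnd2 (-0.05) and Ccnd3 (-0.23) completed the tested log2 fold changes, none of them called.

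Of 20 listed genes for G1 cyclins and their inhibitors 18 were tested, with 0 called by either edgeR or DESeq2 and 0 reaching an unadjusted p of 0.05. Of 25 proliferation genes 20 were tested, with 0 called by edgeR, 1 called by DESeq2 and 3 (15%) that were higher and reached an unadjusted p of 0.05 in edgeR. Among all genes tested, edgeR called 3.27%, DESeq2 called 8.53%, and 20.9% reached an unadjusted p of 0.05. Mki67, a marker of cycling cells picked after its values were seen, was at 1.44, 1.19 and 2.43 CPM with RD and 1.21, 1.65 and 1.05 CPM with HCD.

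Lists of other pathways that act on the members were tested in the same fit. Among all genes tested, edgeR called 3.27%, 20.9% reached an unadjusted p of 0.05, and DESeq2 called 8.53%. At an unadjusted p of 0.05 stood 50% of the immediate early genes tested and 53.3% of the clock genes. The share was 30.8% for the integrated stress response and 25% for FOXO and glucocorticoid receptor targets. Of 18 immediate early genes tested Jund rose (log2 fold change 0.65, adjusted p = 0.049), a call lost without HCD replicate 1 (0.62, adjusted p = 0.085). Of the 18 log2 fold changes 15 were above and 3 below 0, 9 genes reached an unadjusted p of 0.05 (7 higher, 2 lower), and DESeq2 called 6 (5 higher, 1 lower). Of 15 clock genes tested 0 were called by edgeR and 5 by DESeq2, and 8 reached an unadjusted p of 0.05 (3 higher, 5 lower), beside 20.9% of all genes. Of 13 integrated stress response genes tested Asns fell (-5.57, adjusted p = 0.040), from 3.70, 1.33 and 16.7 CPM with RD to 0.202, 0.207 and 0 CPM (4, 3 and 0 counts) with HCD. The Asns call was lost without RD replicate 3 (-4.06, adjusted p = 0.087), without HCD replicate 1 (-5.96, adjusted p = 0.082) and with limma on log2 of FPKM plus 1 or plus 0.1 (-1.79 and -3.91, adjusted p = 0.143 and 0.062). In the same list 4 genes reached an unadjusted p of 0.05 (3 higher, 1 lower), and DESeq2 called 4 (3 higher, 1 lower). Of 20 targets of FOXO and of the glucocorticoid receptor, 0 were called, with 5 at an unadjusted p of 0.05 or less (3 higher, 2 lower) and 3 called by DESeq2.

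Markers of other liver cell types were tested for the same livers. Hepatocyte (10 tested), endothelial (12), stellate (12), cholangiocyte (6) and leukocyte (5) markers had 0 called, beside 3.27% of all genes tested. In the same order, 2, 3, 3, 0 and 0 reached an unadjusted p of 0.05, beside 20.9% of all genes tested. DESeq2 called 2, 2, 0, 0 and 0, beside 8.53% of all genes tested. Of their log2 fold changes, 4 of 10 hepatocyte, 10 of 12 endothelial, 12 of 12 stellate, 4 of 6 cholangiocyte and 5 of 5 leukocyte values were above 0. Among all 13105 genes tested, 6643 were above 0. Stellate markers summed to 383 to 437 CPM with RD and to 684, 417 and 551 CPM in HCD replicates 1, 2 and 3, and endothelial markers to 180 to 308 CPM with RD and to 377, 253 and 254 CPM. HCD replicate 1, highest in Gadd45b and the liver with Xist counts, was also the highest liver in the Kupffer, stellate, endothelial and leukocyte sums. HCD replicate 3, next in Gadd45b, lay within the RD range of the Kupffer (241 CPM), endothelial and leukocyte (13.9 CPM) sums. It lay above that range in the stellate sum. The part of these cell types and of sex in the Gadd45b values was not tested. Among 5 red cell markers tested, Hba-a1 and Hbb-bs rose, with log2 fold changes of 2.41 and 2.28 (adjusted p = 0.022 for both) and 2.70 and 2.53 without HCD replicate 1. Leukocyte markers summed to 8.41 to 15.5 CPM with RD and 12.9 to 22.8 CPM with HCD.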

How the data were processed

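Liver RNA of 6 mice, 3 RD and 3 HCD, was analysed from 2 deposited tables. The authors deposited read counts per gene, whole numbers without normalization, and FPKM per gene and library, whose total is not stated. Per the labels' processing notes, the submitters used STAR, HTSeq, DESeq2 and edgeR with GRCm39, and no versions are given. Gene lengths, as the ratio of counts to FPKM implies them, were within 0.1% of GENCODE M21 exon lengths on GRCm38 for 94.9% to 95.0% of genes per liver and for all 10 members, so positions are given from M21, as annotation and without conversion. Columns of the authors' own fold changes, p-values and adjusted p were not used.

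Counts were tested in R 4.3.3 with edgeR 4.0.16 (filterByExpr by diet, TMM factors of 0.886 to 1.07, glmQLFit and glmQLFTest without covariates), two-sided, and p was adjusted by Benjamini-Hochberg over every gene tested. The biological coefficient of variation was 27.8%. Nothing in the labels states how the mice were housed or batched, so p-values measure the spread between these mice. Fold changes are HCD over RD. Alternatives used DESeq2 1.42.0, limma 3.58.1 on log2(FPKM + 1) and log2(FPKM + 0.1), other scalings and filters, a length correction, the replicate number as a block, and each liver left out. Copies of member transcripts were sought with minimap2 (at least 200 bases at 90% identity), which found antisense overlaps only. Promoters are RefSeq sequences.

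The members and gene lists were chosen with earlier results of these data known. Named were all members, Trp53, Mdm4 and the tested paralogues, at most 3 called genes per direction of every other list, and the 3 genes most correlated with Cdkn1a among those with a mean of at least 5 CPM; other genes are named as picked after their values were seen. A gene of the clock list is left out and not reported here.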

Additional observations from a re-analysis of the deposited data

How the results depend on the processing

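Of 149 alternative values for the members' log2 fold changes, 129 kept direction and call, 4 gained the call (Cdkn1a and Gadd45b with 2 each) and 16 changed sign (Sesn1 in 7, Mdm2 and Ccng1 in 3 each, Ccnd1 in 2 and Gadd45a in 1). The number of genes called, 428, became 1118 with DESeq2, 649 with no filter, 255 with length-trend offsets and 136 with the replicate block, and 36 to 335 when 1 liver was left out (36, 51 and 146 without RD replicates 1, 2 and 3, 103 without HCD replicate 3). Members called, 0, became 1 with DESeq2 and 2 with no filter, and 0 to 1 on leaving out a liver. Members at an unadjusted p of 0.05 or less, 4, became 1 with limma at either pseudocount and 2 with the replicate block, and 1 to 6 on leaving out a liver (1 without HCD replicate 3, 2 without RD replicate 3). Other p53 targets called, 3, became 1 with library sizes alone, 0 with length-trend offsets and 0 with the replicate block, and 0 to 2 on leaving out a liver. Members not overlapping between diets, 1, became 0 in FPKM and 1 to 5 on leaving out a liver (5 without HCD replicate 1, 3 without HCD replicate 2 or RD replicate 2). Calls were kept in part of the 15 alternatives, for Btg1, Hba-a1 and Hbb-bs in 11, Cd68 in 9, Rps27l and Asns in 7, Gdf15 and Perp in 6, Mdm4 in 5 and Jund in 4. The cause of these moves was not tested.

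Signs changed for Ccng1 with library sizes alone (-0.037), for Sesn1 with a mean of at least 50 counts (0.014), limma with a pseudocount of 1 (0.022) or 0.1 (0.028), length-trend offsets (0.025) and the replicate block (0.0032), and with length-trend offsets for Tob1 (-0.028) and Ccnd2 (0.067). On leaving out a liver the log2 fold changes ran from -0.42 to 0.063 (Mdm2), -0.055 to 0.094 (Ccng1), -0.63 to 0.049 (Ccnd1), -1.30 to 0.072 (Gadd45a), -0.083 to 0.15 (Sesn1), -0.27 to 0.062 (Trp53), -0.21 to 0.40 (Tob1), -0.12 to 0.50 (Plk2), -0.40 to 0.18 (Ccnd2) and -0.0044 to 0.19 (Cdkn1b). Same-numbered livers of the 2 diets had correlations of their deviations near 0 (r across genes of -0.08, 0.09 and -0.04). Deviations from the mean of 3 livers per diet cannot decide whether the numbers pair the mice.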
